A study of Homo sapiens with 9 samples.

Results

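The genes of cohesin, condensin and topoisomerase II were followed in KHM-5M thyroid cancer cells by RNA-seq. They were chosen by name, with no measured value in the rule but with earlier results of these data known. All 10 (SMC1A, SMC3, RAD21, STAG2, SMC2, SMC4, NCAPD2, NCAPG, NCAPH and TOP2A) were found among 58735 genes counted. KHM-5M is an established thyroid cancer cell line. The cells were kept for 24 h with DMSO, the solvent control, or with YK-4-279 at 0.3 µM or 1 µM, and each of these 3 groups had 3 samples. YK-4-279 is an inhibitor of ETS transcription factors. All groups came from this single line, and the labels do not say whether samples of a group were separate cultures. The study's methods call the replicates biological, but for another number per condition than the labels give, so p-values measure only the spread between these samples, which may be technical.

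Cohesin is a ring of SMC1A, SMC3 and RAD21, with STAG2 or its paralog STAG1 bound to RAD21. It holds sister chromatids together from replication until anaphase and extrudes loops of chromatin in interphase. Condensin I is built on the ATPases SMC2 and SMC4 with the non-SMC subunits NCAPD2, NCAPG and NCAPH, and it compacts chromosomes for mitosis. TOP2A, the topoisomerase II of dividing cells, passes a DNA duplex through a double-strand break in another and so separates intertwined sister DNAs. Condensin subunits and TOP2A are made mostly in S, G2 and M phase, while cohesin is present throughout the cycle.

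At 1 µM, 6 of the 10 genes were lower than in DMSO, at fitted levels of 0.685 to 0.861 times DMSO, and none was higher, where 9.95% of all genes tested were called lower. A gene was called, or passed the test, where its adjusted p was under 0.05 in edgeR's quasi-likelihood test. TOP2A, SMC4 and NCAPH fell most. RAD21, STAG2, SMC3 and NCAPG did not pass the test. At 0.3 µM no gene of the set passed it, where 0.0% of all genes tested did.

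Total counts ran from 16903251 to 18238884 per sample, and the 10 genes together took 0.298% to 0.373% of them. Counting error is therefore small for these genes, whose lowest count in any sample was 896. The thyroid transcription factor PAX8 lay at 21.6 to 27.7 FPKM (FPKM counts fragments per length of gene, scaled to the size of the library). The other thyroid transcription factors read, NKX2-1 and FOXE1, reached at most 0.174 and 0.567 FPKM in any sample. KRT8 and VIM were abundant, and the differentiated thyroid genes TG, TSHR and SLC5A5 stayed at or near 0 in all samples. No sample pair of a group agreed within counting noise, and replicate 2 of DMSO was the highest of its group for 8 of the 10 genes. Reads on the opposite strand could matter for NCAPG, NCAPD2 and SMC4, because LCORL, MRPL51 and TRIM59 overlap them with mean counts of 463, 2101 and 406, and whether strand was used in counting is not given in the sources used here.

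Promoter sequence is shown for the 3 genes with the largest falls and for NCAPG, a condensin gene that did not pass the test, since the treatment is aimed at DNA-binding ETS factors. The sequences lie before the RefSeq transcription start (GRCh38.p14), run 5′ to 3′ on the gene's strand and hold no annotated untranslated region. TOP2A is shown from chr17:40417897-40418146 (minus strand), SMC4 from chr3:160399545-160399637, NCAPH from chr2:96335516-96335765 and NCAPG from chr4:17810758-17810978 (all plus strand). Capitals mark the motifs searched, read on both strands. These were the box CCAAT, the cell cycle genes homology region TTTGAA, the E2F sequence GCGGGAA, its variant GCGCCAA and the ETS core CCGGAA. None overlapped another in the stretches shown, and CCGGAA and GCGCCAA do not occur in full in them.
TOP2A: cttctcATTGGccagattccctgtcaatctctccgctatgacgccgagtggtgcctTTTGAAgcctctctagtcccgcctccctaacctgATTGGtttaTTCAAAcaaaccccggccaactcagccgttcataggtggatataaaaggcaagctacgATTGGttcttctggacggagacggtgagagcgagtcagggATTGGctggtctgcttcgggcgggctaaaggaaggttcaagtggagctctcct
SMC4: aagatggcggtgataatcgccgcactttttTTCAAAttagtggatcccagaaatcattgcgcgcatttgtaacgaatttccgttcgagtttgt
NCAPH: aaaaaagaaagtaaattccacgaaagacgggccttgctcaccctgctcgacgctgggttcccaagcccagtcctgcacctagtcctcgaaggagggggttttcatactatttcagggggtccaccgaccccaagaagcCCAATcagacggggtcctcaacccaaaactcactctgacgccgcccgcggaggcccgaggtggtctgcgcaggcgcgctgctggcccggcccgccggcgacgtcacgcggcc
NCAPG: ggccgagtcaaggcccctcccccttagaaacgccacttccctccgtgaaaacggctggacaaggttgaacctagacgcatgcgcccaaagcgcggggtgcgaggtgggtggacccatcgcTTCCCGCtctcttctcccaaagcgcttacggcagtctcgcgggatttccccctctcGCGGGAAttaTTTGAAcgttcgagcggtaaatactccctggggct

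The TOP2A stretch holds 4 CCAAT boxes, all on the opposite strand, and 2 copies of TTTGAA. SMC4 has TTTGAA on the opposite strand at 75 bases before the start, and NCAPH has a single CCAAT. NCAPG carries TTTGAA and 2 copies of GCGGGAA. The 9 genes with a RefSeq entry have 14 windows of 300 bases. CCGGAA occurred in 6 of them, from 5 genes (NCAPD2, NCAPG, SMC1A, SMC2 and SMC4), and not in those of TOP2A, NCAPH, SMC3 and STAG2. CCGGAA in the overlapping windows of SMC1A is the same site, counted in each window. In SMC4 it lay 102 bases before the downstream of its RefSeq starts, outside the stretch shown. In NCAPG it lay 225 bases before the start, across the edge of the stretch shown, which begins with its last bases. Of the same 14 windows, TTTGAA occurred in 6, CCAAT in 5, GCGGGAA in 2 and GCGCCAA in 1. CCGGAA was found in 17.2% of all 35116 promoter windows, TTTGAA in 15.2%, CCAAT in 34.6%, GCGGGAA in 6.55% and GCGCCAA in 3.04%. These matches describe the letters of the windows and no binding was measured.

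The genes differed widely in level. In DMSO, RAD21 was the most abundant at 151.1 ± 6.12 FPKM (mean ± SD, n = 3), followed by TOP2A at 141.7 ± 11.98 FPKM, and the samples of these genes overlapped. NCAPD2 stood below them at 100.3 ± 3.04 FPKM. STAG2 (34.9 ± 2.40 FPKM) and SMC3 (34.7 ± 3.17 FPKM) overlapped each other, and so did NCAPH (20.9 ± 1.77 FPKM) and NCAPG (20.8 ± 1.29 FPKM). SMC4 lay between these pairs at 25.7 ± 3.34 FPKM. SMC2 had 15.3 ± 0.599 FPKM, and SMC1A was the lowest at 7.15 ± 0.131 FPKM. RNA of subunits that join in a single ring therefore differed by a mean of 21.1 times between RAD21 and SMC1A, on a scale that divides by the whole annotated gene length.

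**Figure D1:**
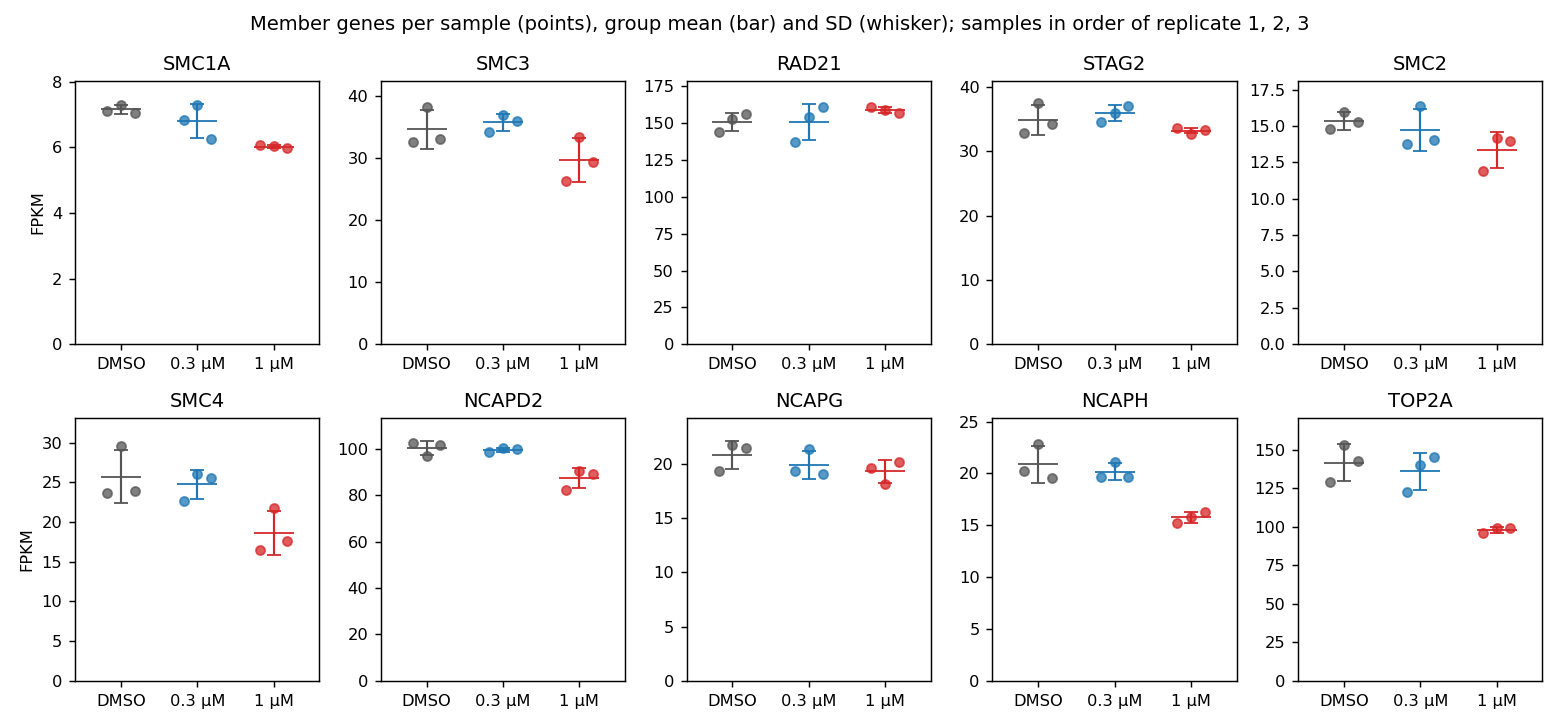
FPKM (vertical axes, from 0, each with its own scale) of the 10 genes in DMSO, 0.3 µM and 1 µM, with points for the 3 samples, a bar for the mean and whiskers for the SD. The 1 µM points of TOP2A, SMC4, NCAPH, NCAPD2, SMC1A and SMC2 lie below all DMSO points, and those of RAD21 lie just above them.

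TOP2A changed most in the comparison of 1 µM with DMSO. Its counts were 14398, 17866 and 15690 in DMSO and 11347, 11048 and 10825 at 1 µM, which is 129.2, 153.0 and 142.9 FPKM against 95.8, 99.1 and 99.4 FPKM. The 1 µM samples lay close together and well below the lowest DMSO sample. The fitted log2 fold change was -0.55 ± 0.061 (SE), a level 0.685 times that in DMSO, with an adjusted p of 6.17e-05 (edgeR quasi-likelihood test, Benjamini-Hochberg adjustment over 15617 genes). With any single sample left out, DMSO replicate 2 included, the log2 fold change was -0.60 to -0.48 and the call held.

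Of the condensin I genes, 4 of 5 were lower at 1 µM, where 9.95% of all genes tested were called lower. The calls of SMC2 and NCAPD2 among them were lost in some alternative settings, as given below. The ATPase SMC4 had 23.6, 29.6 and 23.9 FPKM in DMSO and 16.4, 21.7 and 17.6 FPKM at 1 µM. Replicate 2 was the high sample of both groups, yet the groups did not overlap, and SMC4 fell by 0.49 ± 0.10 on the log2 scale (edgeR adjusted p = 0.00484). NCAPH, the kleisin that closes the condensin ring, had 20.2, 22.9 and 19.5 FPKM in DMSO and 15.2, 15.8 and 16.3 FPKM at 1 µM. It fell by 0.42 ± 0.073 on the log2 scale (edgeR adjusted p = 0.00156), with every 1 µM sample below every DMSO sample.

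The other condensin genes moved less. NCAPD2, a HEAT-repeat subunit, went from 102.4, 96.8 and 101.6 FPKM to 82.3, 90.5 and 89.1 FPKM, with a log2 fold change of -0.22 ± 0.056 (edgeR adjusted p = 0.0162). SMC2, the partner of SMC4, went from 14.8, 15.98 and 15.3 FPKM to 11.9, 14.1 and 13.9 FPKM, with a log2 fold change of -0.22 ± 0.072 (edgeR adjusted p = 0.0487). The groups of both genes did not overlap, but the second call was at the edge of the threshold. NCAPG, the other HEAT-repeat subunit, had 19.4, 21.7 and 21.4 FPKM in DMSO and 19.6, 18.1 and 20.1 FPKM at 1 µM. Its groups overlapped, and the log2 fold change of -0.13 (95% interval -0.27 to 0.01) did not pass the test (edgeR adjusted p = 0.198).

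The SMC2 call was lost in 14 of 15 alternative settings, among them the omission of any single sample, where the adjusted p was 0.0513 to 0.229. The NCAPD2 call was lost without DMSO replicate 3 (edgeR adjusted p = 0.0740) and without 1 µM replicate 1 (0.0843).

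In the cohesin ring, SMC1A alone passed the test at 1 µM. Its values were 7.11, 7.30 and 7.05 FPKM in DMSO and 6.06, 6.04 and 5.96 FPKM at 1 µM, 2 tight groups that did not overlap, with a log2 fold change of -0.27 ± 0.059 (edgeR adjusted p = 0.00737). SMC3, the other ATPase of the ring, had 32.6, 38.4 and 33.2 FPKM in DMSO and 26.4, 33.4 and 29.4 FPKM at 1 µM. The highest treated sample overlapped DMSO, and the log2 fold change was -0.24 ± 0.085 (edgeR adjusted p = 0.0666). Without that sample, 1 µM replicate 2, SMC3 did pass (edgeR adjusted p = 0.0249). In all it passed in 5 of 15 alternative settings, the replicate block among them (edgeR adjusted p = 0.0334).

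RAD21, the kleisin that separase cuts at anaphase, had 144.3, 152.7 and 156.3 FPKM in DMSO and 160.7, 159.2 and 156.8 FPKM at 1 µM. The treated samples all lay above DMSO, though by little, and the log2 fold change of 0.06 (95% interval -0.05 to 0.16) did not pass the test (edgeR adjusted p = 0.489). STAG2 had 32.8, 37.5 and 34.3 FPKM in DMSO and 33.6, 32.8 and 33.3 FPKM at 1 µM. The groups overlapped, with 1 µM replicate 2 just below the lowest DMSO sample (32.76 against 32.81 FPKM) and the other treated samples within the DMSO range, and STAG2 did not pass at a log2 fold change of -0.09 (95% interval -0.21 to 0.04, edgeR adjusted p = 0.328).

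Against all genes tested, 6 of 10 lower compares with 9.95% called lower, 7.67% called higher and 17.6% called in either direction. The set was chosen with earlier results of these data known, so this comparison is a description and not independent support. The median log2 fold change of the 10 genes was -0.23, while that of all genes tested was -0.01. None of the 10 both passed the edgeR test and changed by over 1.5-fold, the fold cutoff of the study's methods, while 3.91% of the protein-coding genes tested did. FPKM groups that did not overlap, with 1 µM lower, were found for 6 of the 10 genes and for 16.9% of all genes. Counting RAD21, whose groups were apart in the other direction, the count was 7, against 37.0% of all genes.

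**Figure D2:**
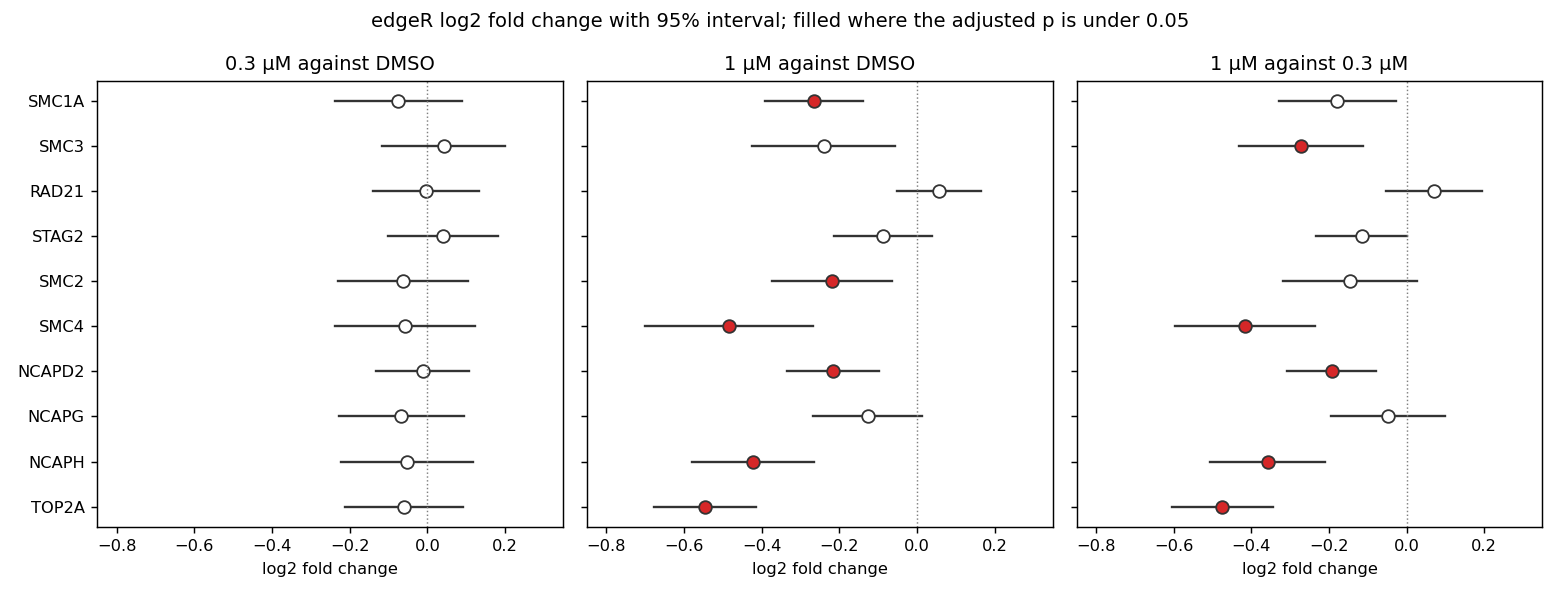
Log2 fold change (horizontal axes) of each gene in the 3 comparisons, with the 95% interval as a line, and the point filled where the edgeR adjusted p was under 0.05. At 1 µM against DMSO 6 points are filled, from -0.55 for TOP2A to -0.22 for NCAPD2, and at 0.3 µM none is.

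Genes that work with the set were read from lists by function. Of all genes tested at 1 µM against DMSO, 9.95% were called lower and 7.67% higher. Of 15 cohesin regulators and partners, 2 were lower and 2 higher at 1 µM, near these shares. CDCA5 (sororin), which protects cohesion against release, fell by 0.45 on the log2 scale (edgeR adjusted p = 0.000299), from 39.0 to 44.4 FPKM in DMSO to 31.0 to 31.5 FPKM. WAPL, which releases cohesin from chromatin, rose by 0.28 (edgeR adjusted p = 0.0147), and STAG1, the paralog of STAG2, rose by 0.25 (edgeR adjusted p = 0.00785). NIPBL, the cohesin loader, fell by 0.32 (edgeR adjusted p = 0.0294), although its groups overlapped. The NIPBL call was lost without any of DMSO replicates 2 and 3 and 1 µM replicates 1 and 3 (edgeR adjusted p = 0.0562, 0.0669, 0.134 and 0.0742), and that of WAPL without 1 µM replicate 3 (0.0807).

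Condensin II, which shares SMC2 and SMC4, gave 2 of 3 subunits lower, where 9.95% of all genes tested were called lower. NCAPD3 fell by 0.24 and NCAPG2 by 0.25 on the log2 scale (edgeR adjusted p = 0.00685 and 0.00745). NCAPH2 had a log2 fold change of -0.22 (edgeR adjusted p = 0.0622), and passed without DMSO replicate 2 (0.0157). All 3 had lower FPKM in every 1 µM sample than in any DMSO sample.

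Among the other topoisomerases, the type I enzyme TOP1 rose by 0.29 on the log2 scale (edgeR adjusted p = 0.00269), from 51.8, 55.2 and 51.8 FPKM to 64.5, 67.5 and 64.6 FPKM. TOP2B, the isoform that also works in resting cells, had 30.1, 32.5 and 30.8 FPKM in DMSO and 29.4, 31.0 and 30.5 FPKM at 1 µM. Its groups overlapped, with a log2 fold change of -0.06 (edgeR adjusted p = 0.541). TOP1MT and TOP3A did not pass, at -0.08 and -0.15, and TOP3B was too low to test. The topoisomerase II isoform of dividing cells and TOP1 thus moved in opposite directions.

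Meiotic cohesin genes were near 0. SMC1B was too low to test, and none of STAG3 (log2 fold change -0.54), REC8 (0.04) and RAD21L1 (0.97) passed (lowest edgeR adjusted p = 0.0687). Of 10 genes of the SMC5/6 complex and SMCHD1, 3 were lower and 1 was higher, beside 9.95% and 7.67% of all genes tested. NSMCE3 rose by 0.43 on the log2 scale (edgeR adjusted p = 0.00730). SMC5, SMC6 and SLF1 fell by 0.31, 0.25 and 0.37, and each of these 3 calls was lost without any of DMSO replicates 2 and 3 and 1 µM replicates 1 and 2 (edgeR adjusted p = 0.0528 to 0.133), and for SMC6 also without 1 µM replicate 3 (0.0761).

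Cell cycle genes moved beside the set, where 9.95% of all genes tested were called lower and 7.67% higher. Of 16 S phase genes 15 were lower, with a median log2 fold change of -0.31, and CDC45, a helicase subunit of the replication fork, fell most (-0.62, edgeR adjusted p = 6.74e-05). Without 1 µM replicate 3 the calls of MCM3, MCM6, TYMS, GINS2 and UHRF1 were lost (edgeR adjusted p = 0.0523 to 0.0893), which left 10 of 16. That of RRM1 was lost without 1 µM replicate 2 (0.0506) and that of GINS2 also without 1 µM replicate 1 (0.0635). MCM6 was the least stable, lost also without DMSO replicate 3 or any other 1 µM sample (0.0726 to 0.0795), with no filter (0.0999) and with all 9 samples in a single fit (0.139). The G2/M list was divided, with 6 of 18 lower, 2 higher and a median of -0.02. CDK1, AURKB and UBE2C fell by 0.68, 0.54 and 0.46 on the log2 scale, while AURKA rose by 0.23 and CCNB1 by 0.21. The largest fall of the list was that of CENPE (log2 fold change -1.11), and the mean FPKM of CENPF at 1 µM was 0.576 times that in DMSO. The calls of CENPE and CENPF were lost without 1 µM replicate 1 or 3 (edgeR adjusted p = 0.0557 to 0.0783) and in DESeq2 (adjusted p = 0.142 and 0.203). The call of KIF11 was lost without DMSO replicate 3 or any 1 µM sample (edgeR adjusted p = 0.0531 to 0.0657), and that of CCNB1 without DMSO replicate 1 or 3 or 1 µM replicate 2 or 3 (0.0566 to 0.0893). In these bulk samples fewer cells in a phase and less RNA per cell cannot be told apart, and the part of cell cycle position in the change of the 10 genes was not tested.

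Markers of other cell types were also read at 1 µM. Of the 4 epithelial markers tested none passed (KRT8, KRT18, KRT19 and EPCAM, lowest edgeR adjusted p = 0.569), and CDH1 was near 0. Of 3 mesenchymal markers, VIM and CDH2 did not pass, while FN1 (fibronectin) rose by 0.30 on the log2 scale (edgeR adjusted p = 0.0183), from 222.0, 201.5 and 205.0 FPKM to 302.0, 242.4 and 237.1 FPKM. The endothelial markers PECAM1 and CDH5 were near 0, and VWF did not pass (edgeR adjusted p = 0.252). The summed FPKM of 4 leukocyte markers was 0.234 to 0.690 in DMSO and 0.971 to 1.09 at 1 µM. This sum came almost wholly from CD14, which rose by 1.07 on the log2 scale (edgeR adjusted p = 0.0484), while PTPRC, CD3E and CD68 were at or near 0 in all samples. The sum of 3 fibroblast markers was 45.8 to 63.8 FPKM in DMSO and 39.2 to 45.0 FPKM at 1 µM, with COL3A1 near 0. COL1A1 and PDGFRB fell by 0.41 and 0.48 on the log2 scale (edgeR adjusted p = 0.0132 and 0.000773), with overlapping groups for COL1A1. The part of these markers in the change of the 10 genes was not tested.

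**Figure D3:**
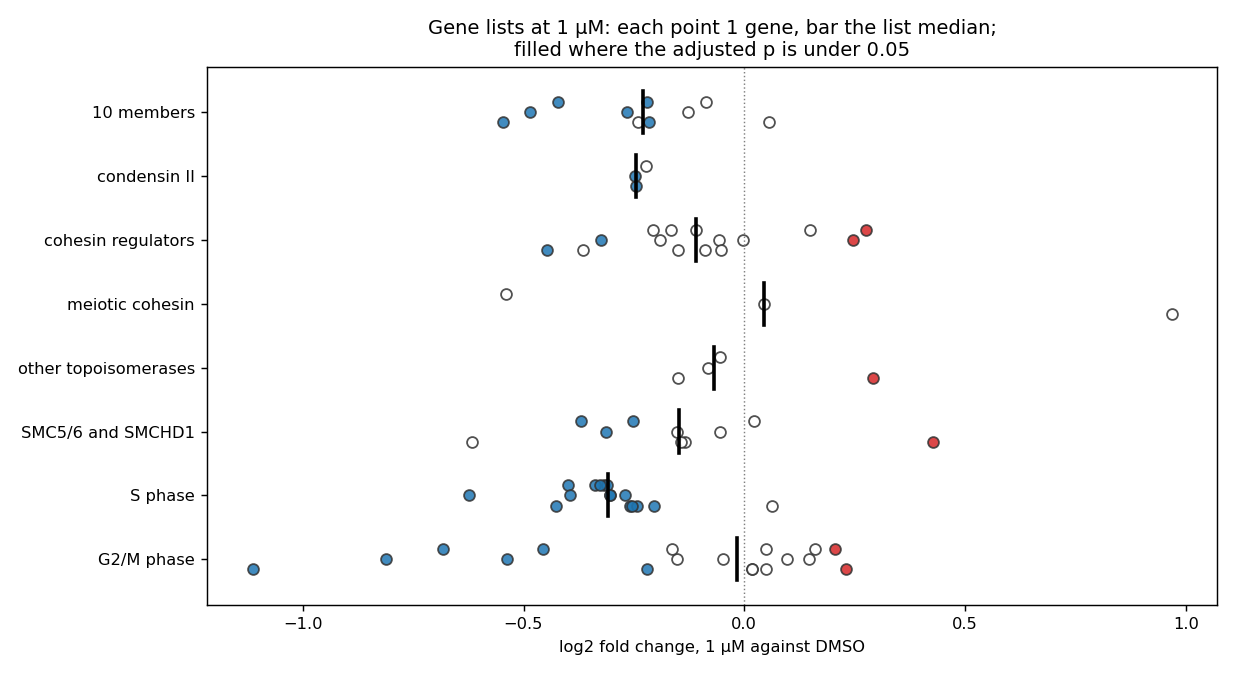
Log2 fold change at 1 µM against DMSO (horizontal axis) of each tested gene in the 10-gene set and 7 related lists, with a bar at each median, filled blue for lower and red for higher where the edgeR adjusted p was under 0.05. The 10-gene set has its median at -0.23, the S phase list at -0.31 and the G2/M list at -0.02, with G2/M genes called on both sides of 0.

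Ratios of FPKM within a sample describe the balance between partners. They carry no test, and the 5 plotted were picked from 15 after their values were seen. TOP2A was 4.55 ± 0.221 times TOP2B in DMSO and 3.24 ± 0.0316 times at 1 µM (mean ± SD, n = 3). TOP2A over TOP1 went from 2.67 ± 0.157 to 1.498 ± 0.0359. Both ratios were lower in each 1 µM sample than in any DMSO or 0.3 µM sample.

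NCAPH and NCAPG were nearly equal in DMSO, at a ratio of 1.00 ± 0.0781, and stood at 0.818 ± 0.0483 at 1 µM. STAG1 was 0.484 ± 0.0195 times STAG2 in DMSO and 0.609 ± 0.00149 times at 1 µM. WAPL over NIPBL went from 0.979 ± 0.0843 to 1.504 ± 0.2496, with the widest spread among treated samples (1.72, 1.23 and 1.56). The summed FPKM of the 4 cohesin genes was 227.8 ± 9.83 in DMSO and 227.8 ± 3.14 at 1 µM, set mainly by RAD21. The sum of the 5 condensin genes was 183.0 ± 3.46 FPKM in DMSO and 154.3 ± 7.78 FPKM at 1 µM.

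**Figure D4:**
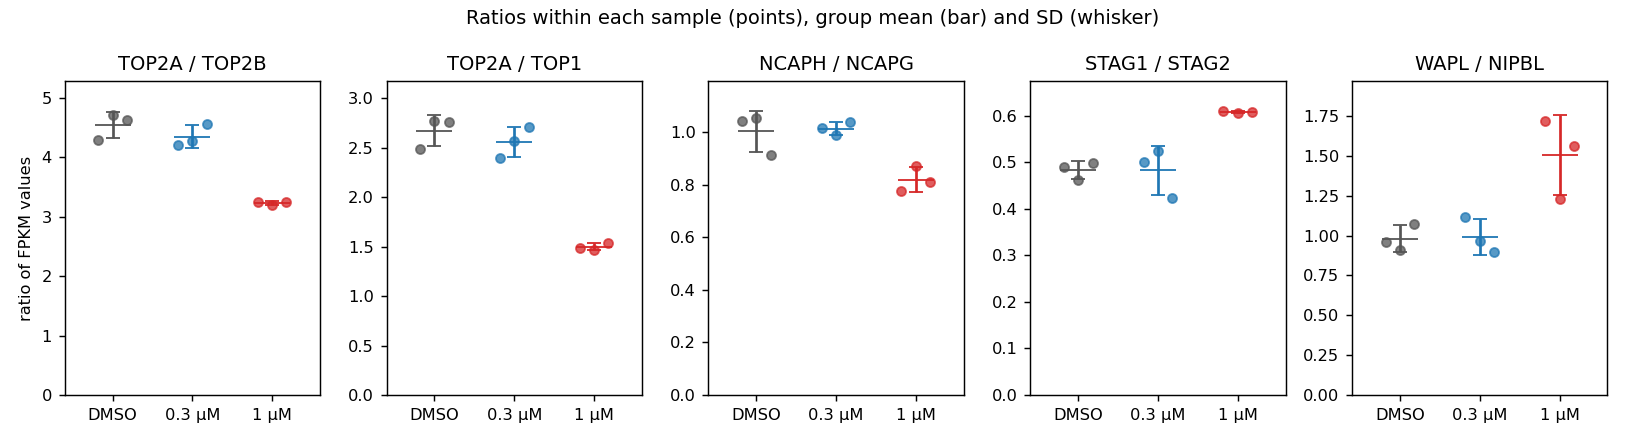
Ratio of FPKM within each sample (vertical axes, from 0) for 5 pairs of genes, with points for samples, a bar for the group mean and whiskers for the SD. TOP2A/TOP2B, TOP2A/TOP1 and NCAPH/NCAPG are lower at 1 µM than in the other groups, and STAG1/STAG2 and WAPL/NIPBL are higher.

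The doses were also compared with each other, a comparison that shares its 1 µM samples with the one above. At 1 µM against 0.3 µM, 5 of the 10 genes were lower and none was higher, where 6.75% of all 15583 genes tested were called lower, 5.85% higher and 12.6% in either direction. None both passed and changed by over 1.5-fold, against 2.37% of the protein-coding genes tested. TOP2A had 122.7, 140.3 and 145.2 FPKM at 0.3 µM, all above the 1 µM samples, and fell by 0.47 ± 0.061 on the log2 scale (edgeR adjusted p = 0.000144). SMC4 had 22.7, 26.0 and 25.5 FPKM at 0.3 µM and fell by 0.42 ± 0.086 (edgeR adjusted p = 0.00450). NCAPH had 19.6, 21.1 and 19.7 FPKM at 0.3 µM and fell by 0.36 ± 0.070 (edgeR adjusted p = 0.00334).

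SMC3 and NCAPD2 completed the 5, with log2 fold changes of -0.27 and -0.19 (edgeR adjusted p = 0.0270 and 0.0277). Both calls were lost without 0.3 µM replicate 2 and without 1 µM replicates 1 and 3, with edgeR adjusted p of 0.0976 to 0.145 for SMC3 and 0.0712 to 0.124 for NCAPD2. SMC1A (-0.18, edgeR adjusted p = 0.112), which had passed against DMSO, did not pass here, except without 0.3 µM replicate 3 (0.0268). STAG2, SMC2, NCAPG and RAD21 had log2 fold changes of -0.12, -0.15, -0.05 and 0.07 and did not pass.

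At 0.3 µM against DMSO the values of all 10 genes overlapped between the groups, while 8.39% of all genes had groups apart. The log2 fold changes ran from -0.08 for SMC1A to 0.04 for SMC3, and 0 of 10 passed the edgeR test, where 0.0% of 15762 genes did. None of the 10 had an unadjusted p under 0.05 in edgeR, and DESeq2 called 0 of the 10. Of all 15762 genes, 594 had such a p in edgeR. DESeq2 called 1 gene of all, and edgeR with no filter called 30. The 95% intervals of the 10 genes lay within -0.24 to 0.20 on the log2 scale. A fall at 0.3 µM of the size seen at 1 µM for TOP2A, SMC4 and NCAPH lies outside their intervals, whose lower ends were -0.21, -0.24 and -0.22.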

How the data were processed

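RNA-seq of KHM-5M cells was used in 3 groups of 3 samples (DMSO, 0.3 µM and 1 µM of YK-4-279, 24 h), grouped by the labels. Reads were trimmed and filtered by the authors, aligned to GRCh38 with Hisat2, and deposited as raw counts per gene. The counter is HTseq in the methods and featureCounts 1.5.0-p3 in the submitters' processing notes, which also name HISAT2 2.0.5. The methods describe a stranded kit and 2 biological replicates per condition, and the labels a poly-T TruSeq kit and 3 replicates. FPKM values deposited by the authors equal these counts scaled by gene length and library size, up to a constant per sample. Their DESeq2 fold changes and p-values hold their own comparisons and were not used.

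From the counts, edgeR 4.0.16 (R 4.3.3, limma 3.58.1) was run per pair of groups with filterByExpr (minimum count 10), TMM, glmQLFit and glmQLFTest, and p-values were adjusted by Benjamini-Hochberg over all genes tested. FPKM served for levels, ranges and ratios. Figures used Python 3.11.15. The limit set by a gene with no read (3 counts) was 0.164 to 0.177 CPM, which covers counting error only. The fits were tested on simulated counts. Alternatives were DESeq2 1.42.0, RLE size factors, no filter, all 9 samples in a single fit, a replicate block, trends with gene length or GC content (lowess span 0.3) and each sample left out. Promoter windows of 250 bases before and 50 after the start came from RefSeq (GRCh38.p14), matched by symbol for 9 of the 10 genes, and untranslated regions from GENCODE.

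The members and lists were chosen with earlier results of these data known. Named were all 10 genes, every gene of the function lists (cell type markers not among them) of at most 5, in longer lists genes among those past adjusted p 0.05 at 1 µM, and the protein-coding gene most correlated with each member (3 for TOP2A). Some cell type markers are not reported here and were left out of the summed levels.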

Additional observations from a re-analysis of the deposited data

How the results depend on the processing

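The calls of TOP2A, SMC4, NCAPH and SMC1A at 1 µM against DMSO held in 15 of 15 alternatives, and those of TOP2A, SMC4 and NCAPH at 1 µM against 0.3 µM did too. RAD21, STAG2 and NCAPG passed in 0 of 15 against DMSO. No call changed direction. With a sample left out, 4 to 6 genes of the set were called at 1 µM against DMSO, 3 to 6 at 1 µM against 0.3 µM and 0 at 0.3 µM. From 0 to 1 then both passed and changed by over 1.5-fold at 1 µM against DMSO, namely TOP2A without DMSO replicate 1 (log2 -0.60) and SMC4 without 1 µM replicate 2 (log2 -0.61). Of the related list genes, 34 were called at 1 µM against DMSO and 22 to 33 with a sample left out, the lowest without 1 µM replicate 3, and 22 at 1 µM against 0.3 µM and 12 to 28, the lowest without 1 µM replicate 1. An arm of 2 samples is then assumed to vary like the other. Deviations from group means correlated at -0.02 to 0.08 for same-numbered samples and at -0.07 to 0.04 for differently numbered samples. Only 1 of 9 samples correlated best with its own number in both other groups. Some same-numbered pairs lay above all differently numbered pairs, so these values do not settle whether the replicate numbers pair the samples. With the replicate block, 6 genes of the set were called at 1 µM against DMSO (SMC3 with, SMC2 without), 4 at 1 µM against 0.3 µM and 0 at 0.3 µM, and 32, 20 and 0 list genes, with MCM6, KIF11 and SLF1 among the calls lost against DMSO. Levels per length from TMM-normalized counts lay within 1 SD of the FPKM means. With 3 samples per group, SEs of 0.051 to 0.10 for the log2 fold changes of the set at 1 µM limited what could be detected.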

Other observations

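Some genes shared a pattern across samples that the group labels do not give. SMC3 and SMC4 were highest in replicate 2 of both DMSO and 1 µM, and so were NIPBL, CENPE and CENPF, genes picked for this after their values were seen. Of the set, SMC2 was too, though by little at 1 µM (14.14 FPKM against 13.94 FPKM in replicate 3). CENPF, a kinetochore protein of G2 and M phase, had 33.8, 42.3 and 31.2 FPKM in DMSO and 13.9, 31.8 and 16.05 FPKM at 1 µM. CENPE, a kinetochore motor, had 7.19, 10.4 and 6.11 FPKM in DMSO and 2.35, 6.26 and 2.50 FPKM at 1 µM. TOP2A did not share it at 1 µM, where its samples lay within 95.8 to 99.4 FPKM. The log2 fold change of SMC4 was -0.61 without 1 µM replicate 2 and -0.37 without DMSO replicate 2.

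The protein-coding genes whose profile was most like that of TOP2A over the 9 samples were AIF1L (Pearson r = 0.989), CFAP69 (0.986) and AASS (0.985), among 13053 genes. For the others they were UBR7 for SMC1A (0.986), DST for SMC3 (0.988), NUP58 for RAD21 (0.974), KIAA1328 for STAG2 (0.963), MKI67 for SMC2 (0.968), REV3L for SMC4 (0.988), LETMD1 for NCAPD2 (0.992), ANKRD28 for NCAPG (0.963) and VCAN for NCAPH (0.981). These are the highest of many values over few samples that fall into 3 groups, and they are given as a description with no test.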
